A study of Homo sapiens with 8 samples.

Results

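The genes described here are 43 translation factors and tRNA synthetases of NCI-H2009, a long-established line of human lung adenocarcinoma cells. They were chosen by name from a list of 44 symbols, of which 18 named initiation factors, 6 elongation factors and 20 cytosolic tRNA synthetases. All listed symbols except EEF1G matched a row among the 52576 genes of the table, which left 5 elongation factors, and EEF1G is not analysed here. Every one of the 43 passed the filter on low values (at least 1 RPKM in the mean of the 8 libraries), as did 13979 genes in all. RNA came from 4 groups of 2 libraries, and all groups, the controls included, carried dCas9-KRAB, a nuclease-dead Cas9 fused to the KRAB repressor domain. The groups then received e3 guide 2 or e3 guide 1, which are different guide RNAs to the same enhancer, a guide with no target in the human genome (the non-targeting guide), or no guide. The controls were the non-targeting and no-guide libraries together. No other line was used, the cells were transfected, and the labels do not say that replicates came from separate cultures, so the p-values rest on a spread among libraries that may be technical only.

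Translation begins when initiation factors bring the initiator tRNA and the small ribosomal subunit to the cap of an mRNA and scan for the start codon. Elongation factors then deliver each aminoacyl-tRNA and move the ribosome on by a codon, and each tRNA synthetase loads its own amino acid onto the matching tRNAs. The mRNAs of many elongation factors and of some initiation factors begin with a C followed by a run of pyrimidines, the terminal oligopyrimidine (TOP) tract, through which their translation answers to mTOR. MYC, a transcription factor that binds the E-box CACGTG, is known to act on genes of ribosome biogenesis and translation. By their names EIF5A stands with the initiation factors though it also acts in elongation, and EEF1E1 stands with the elongation factors though it is a scaffold of the multisynthetase complex.

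Of the 43 genes, 8 fell in the e3 libraries relative to the controls, none rose, and 35 did not pass the test (limma, Benjamini-Hochberg adjusted p under 0.05 over all 13979 genes tested). Among all genes tested, 5.2% were called in this comparison, 2.58% lower and 2.63% higher. The genes that fell were the initiation factors EIF4B, EIF3E, EIF3D and EIF3A, the elongation factors EEF1B2 and EEF1A1, and the synthetases VARS and EPRS, by 0.24 to 0.41 on the log2(RPKM + 1) scale. The changes of 41 genes were negative and those of 2, EIF6 (0.11) and EEF1D (0.00), positive. The median change was -0.20 over the 43 genes, -0.18 over the initiation factors, -0.32 over the elongation factors and -0.20 over the synthetases, beside -0.02 over all genes tested. All 4 e3 libraries lay below all 4 control libraries for 21 of the 43 genes, against 7.51% of all genes tested. For none of the 43 did they all lie above the controls, against 7.58% of all genes tested. The shares over all genes include every gene of at least 1 RPKM, while the median level of the 43 genes was 62.3 RPKM. No share among genes of like level was computed. The list was chosen with earlier results of these data known, so these shares are a description and not a test of the list.

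**Figure D1:**
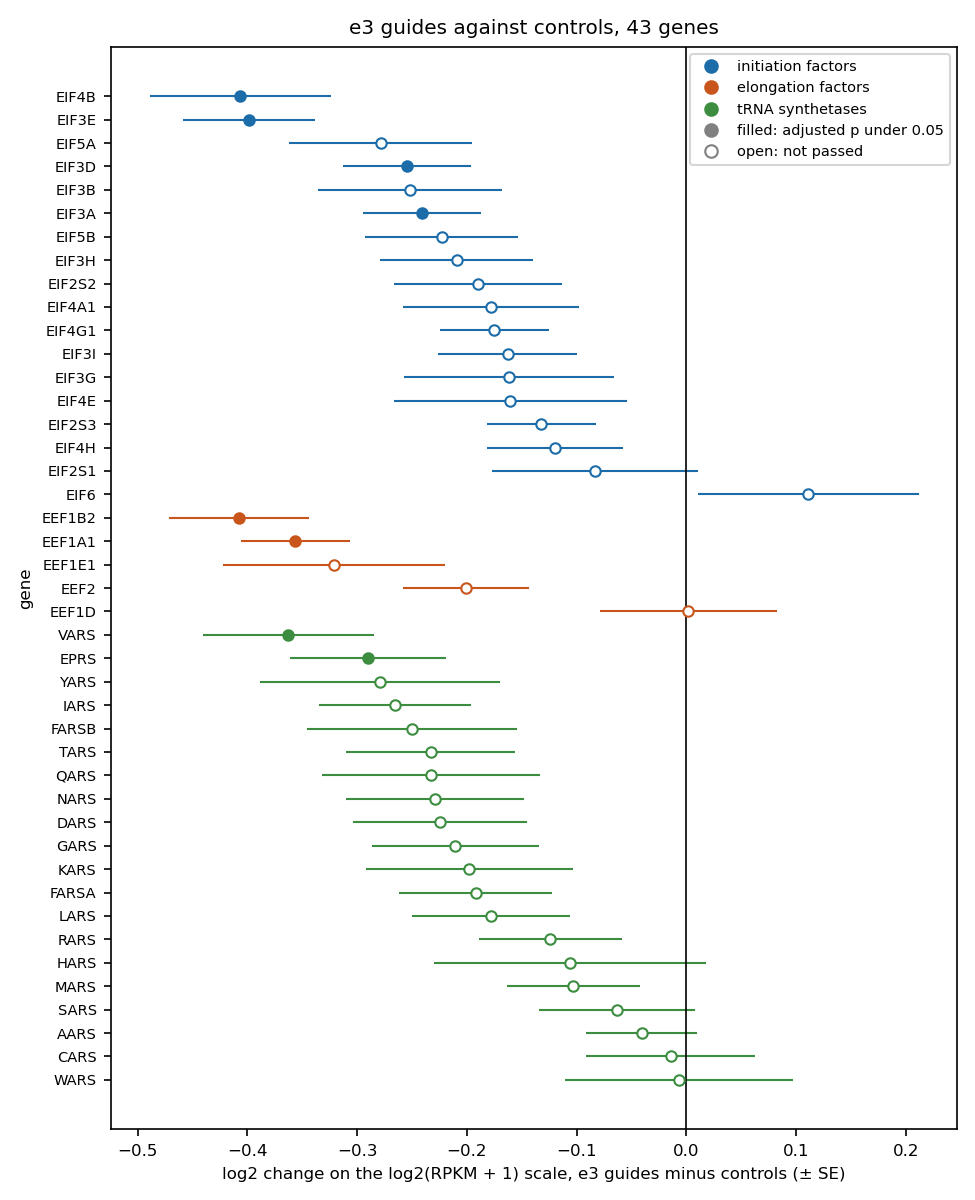
Log2 change on the log2(RPKM + 1) scale of each of the 43 genes, as the mean of the 4 libraries with an e3 guide minus the mean of the 4 control libraries. Points are the changes, bars are ± 1 SE, colours are the roles and filled points passed the adjusted p of 0.05; 41 of 43 points lie left of 0, and the 8 filled ones lie between -0.41 and -0.24.

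The count depended on single libraries. Without e3 guide 2 replicate 1, e3 guide 2 replicate 2 or e3 guide 1 replicate 2 the count of members called lower was 3, without e3 guide 1 replicate 1 or no guide replicate 2 it was 4, and without any of the other libraries it was 5. Over all genes the count was 727, and 180 to 580 without 1 library. EEF1A1, EEF1B2 and EIF3E passed in each of these fits. When the means of the 4 groups were used as the samples, 2 against 2, no member passed.

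Annotated start sequences are shown first for the genes of both motifs named above. The choice by name did not read these sequences. It did take genes of a class known to carry TOP tracts and to be acted on by MYC, so the shares below are a description and not a test. RefSeq promoters (GRCh38.p14, 250 bases before and 50 after the start) matched 33 of the 43 genes by symbol. At the annotated start, a C followed by at least 4 more pyrimidines stood in 6 of the 33, against 4.07% of 35116 promoters of the same length. The windows below run from 10 bases before the start to 15 after it, and capitals mark the tract.
EIF4B, chr12:53006446-53006470, plus strand: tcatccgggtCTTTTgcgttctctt
EIF3D, chr22:36529152-36529176, minus strand: cgcatgtttcCTCTTTTCCTggttt
EIF2S3, chrX:24054946-24054970, plus strand: gatttccttcCTCTTTTggcaacat
EEF1A1, chr6:73521018-73521042, minus strand: cgtgaacgttCTTTTTCgcaacggg
EEF2, chr19:3985449-3985473, minus strand: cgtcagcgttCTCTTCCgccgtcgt
QARS, chr3:49104743-49104767, minus strand: gcctaagtttCTTTTagtttccggt
Of these 6 genes EIF4B, EIF3D and EEF1A1 fell in the e3 libraries, and EEF2, EIF2S3 and QARS did not pass, with changes of -0.20, -0.13 and -0.23. No tract stood at the annotated start of EEF1B2, which says only that these letters are not at that position. A match is a description of the letters and not a measured start of transcription.

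The letters CACGTG, which read the same on both strands, stood in the 250 bases upstream of the start in 5 of the 33 genes, EIF4B, EIF4E, EIF4G1, EIF4H and IARS, against 6.34% of the 35116 promoters. EIF4B is printed because it is the only one of these 5 that passed the test, and EIF4E and EIF4G1, the cap-binding protein and the scaffold of the same complex, because each held 2 matches. Each line gives the 250 bases upstream in the direction of transcription, with the E-boxes in capitals.
EIF4B, chr12:53006206-53006455, plus strand: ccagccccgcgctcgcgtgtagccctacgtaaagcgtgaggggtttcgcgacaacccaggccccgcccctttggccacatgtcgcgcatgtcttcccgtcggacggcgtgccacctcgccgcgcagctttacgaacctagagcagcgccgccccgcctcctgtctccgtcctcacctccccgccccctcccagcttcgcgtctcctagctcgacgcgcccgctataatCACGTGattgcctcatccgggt
EIF4E, chr4:98929134-98929383, minus strand: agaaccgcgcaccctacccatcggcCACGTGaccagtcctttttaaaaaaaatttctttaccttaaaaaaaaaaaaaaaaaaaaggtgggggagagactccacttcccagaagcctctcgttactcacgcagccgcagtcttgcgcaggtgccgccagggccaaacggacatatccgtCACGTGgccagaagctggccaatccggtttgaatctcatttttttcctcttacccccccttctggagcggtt
EIF4G1, chr3:184314356-184314605, plus strand: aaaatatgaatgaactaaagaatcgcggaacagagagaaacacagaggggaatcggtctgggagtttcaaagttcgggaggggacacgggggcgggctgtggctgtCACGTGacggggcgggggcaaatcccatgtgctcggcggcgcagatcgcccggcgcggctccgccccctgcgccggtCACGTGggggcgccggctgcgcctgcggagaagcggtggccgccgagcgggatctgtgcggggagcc
EIF4E changed by -0.16 and EIF4G1 by -0.17 in the e3 libraries relative to the controls, and neither passed. IARS, with 1 match, changed by -0.27 and EIF4H, also with 1, by -0.12, and neither passed. The other promoters matched, those of EIF3D, EEF1A1, EEF1B2 and EPRS among them, held no CACGTG in this window, from which nothing follows about the factor.

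Among the initiation factors, 4 of 18 fell (background 2.58%) and 11 of 18 had e3 libraries all below the controls (background 7.51%). EIF4B (ENSG00000063046.12, chromosome 12), which stimulates the helicase that unwinds mRNA leaders, had 55.8 and 53.9 RPKM with e3 guide 2 and 60.2 and 60.1 RPKM with e3 guide 1, against 74.4 and 66.6 RPKM with the non-targeting guide and 84.6 and 81.6 RPKM without a guide. The groups did not overlap, and the no-guide libraries were the highest. Its change was -0.41 ± 0.08 (log2, SE, adjusted p = 0.0268). EIF3E (ENSG00000104408.5, chromosome 8), a subunit of the large eIF3 scaffold on the small ribosomal subunit, had 66.3 and 65.3 RPKM with e3 guide 2 and 69.0 and 71.2 RPKM with e3 guide 1, against 95.1 and 87.7 RPKM with the non-targeting guide and 92.7 and 84.3 RPKM without a guide. Both controls stood well above both e3 guides, and the change was -0.40 ± 0.06 (adjusted p = 0.00929).

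EIF3D (ENSG00000100353.12, chromosome 22), the eIF3 subunit that can bind the cap of some mRNAs, had 57.6 and 58.2 RPKM with e3 guide 2 and 62.9 and 60.7 RPKM with e3 guide 1, against 74.1 and 72.1 RPKM with the non-targeting guide and 73.0 and 67.2 RPKM without a guide. Its groups did not overlap, at a change of -0.25 ± 0.06 (adjusted p = 0.0387). EIF3A (ENSG00000107581.6, chromosome 10), the largest eIF3 subunit, had 78.5 and 77.5 RPKM with e3 guide 2 and 78.5 and 80.3 RPKM with e3 guide 1, against 89.4 and 91.3 RPKM with the non-targeting guide and 93.0 and 99.3 RPKM without a guide. The e3 libraries of EIF3A were close together, at 78.7 ± 1.15 RPKM, against 93.2 ± 4.29 RPKM in the controls (SD, n = 4 each), and the change was -0.24 ± 0.05 (adjusted p = 0.0352).

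The other eIF3 subunits on the list did not pass. EIF3B, which joins EIF3A at the core of the complex, had 73.9 and 74.1 RPKM with e3 guide 2 and 84.0 and 85.6 RPKM with e3 guide 1, against 106 and 99.2 RPKM with the non-targeting guide and 86.3 and 88.4 RPKM without a guide. The e3 guide 1 libraries lay just below the no-guide libraries, and the change of -0.25 ± 0.08 had an adjusted p of 0.115. EIF3H, EIF3I and EIF3G, further subunits, changed by -0.21, -0.16 and -0.16.

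EIF5A, EIF4A1 and EIF4G1 were among the most abundant initiation factors. EIF5A, the hypusine-bearing factor, had 355 and 351 RPKM with e3 guide 2 and 385 and 384 RPKM with e3 guide 1, against 490.0 and 497 RPKM with the non-targeting guide and 389 and 423 RPKM without a guide. Its e3 libraries were all below the controls, but e3 guide 1 came close to no guide, and its change of -0.28 ± 0.08 did not pass (adjusted p = 0.0866). EIF4A1, the helicase that EIF4B stimulates, had 262 and 253 RPKM with e3 guide 2 and 274 and 285 RPKM with e3 guide 1, against 332 and 336 RPKM with the non-targeting guide and 279.7 and 274 RPKM without a guide. The e3 and no-guide libraries of EIF4A1 overlapped, and its change of -0.18 ± 0.08 did not pass (adjusted p = 0.228). EIF4G1 had 139.5 and 145 RPKM with e3 guide 2 and 145 and 143 RPKM with e3 guide 1, against 164 and 167 RPKM with the non-targeting guide and 153 and 162 RPKM without a guide, without overlap, at a change of -0.17 ± 0.05 (adjusted p = 0.0735).

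EIF5B, which joins the ribosomal subunits, had 38.7 and 36.2 RPKM with e3 guide 2 and 38.9 and 43.4 RPKM with e3 guide 1, against 48.7 and 45.9 RPKM with the non-targeting guide and 44.5 and 44.8 RPKM without a guide. The groups did not overlap, though e3 guide 1 replicate 2 came within reach of the no-guide libraries, and the change of -0.22 ± 0.07 had an adjusted p of 0.0978. The 3 subunits of eIF2, which carries the initiator tRNA, changed by -0.08 (EIF2S1), -0.19 (EIF2S2) and -0.13 (EIF2S3), and none passed. EIF4H, a helper of the same helicase as EIF4B, changed by -0.12, and EIF4E by -0.16. EIF6, which keeps the large ribosomal subunit apart from the small one, had the larger of the 2 positive changes on the list, 0.11 ± 0.10 (adjusted p = 0.566).

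Among the elongation factors, 2 of 5 fell (background 2.58%). EEF1A1 (ENSG00000156508.12, chromosome 6), which delivers aminoacyl-tRNA to the ribosome, had 556 and 561 RPKM with e3 guide 2 and 596 and 604 RPKM with e3 guide 1, against 723 and 721 RPKM with the non-targeting guide and 768 and 754 RPKM without a guide. Replicates of a group differed by far less than e3 libraries differed from controls. It averaged 579 ± 24.2 RPKM in the e3 libraries and 742 ± 23.5 RPKM in the controls (SD, n = 4 each), a change of -0.36 ± 0.05 (adjusted p = 0.00736). EEF1B2 (ENSG00000114942.9, chromosome 2), the exchange factor that reloads eEF1A with GTP, had 232 and 237 RPKM with e3 guide 2 and 257 and 279 RPKM with e3 guide 1, against 336 and 328 RPKM with the non-targeting guide and 338 and 328 RPKM without a guide. The controls of EEF1B2 were nearly level with each other, and its change was -0.41 ± 0.06 (adjusted p = 0.0105).

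EEF2, the translocase that moves the ribosome along the mRNA, had 644 and 653 RPKM with e3 guide 2 and 688 and 687 RPKM with e3 guide 1, against 768 and 839 RPKM with the non-targeting guide and 725 and 743 RPKM without a guide. Its groups did not overlap, and its change of -0.20 ± 0.06 did not pass (adjusted p = 0.0751). The change of EEF2 shrank to as little as -0.06 under another processing setting. EEF1E1 had 9.90 and 9.41 RPKM with e3 guide 2 and 9.47 and 12.4 RPKM with e3 guide 1, against 13.7 and 13.7 RPKM with the non-targeting guide and 12.7 and 12.0 RPKM without a guide. Replicate 2 of e3 guide 1 reached into the range of the no-guide libraries, and the change of -0.32 ± 0.10 did not pass (adjusted p = 0.101). EEF1D, another exchange factor subunit, had 62.6 and 61.4 RPKM with e3 guide 2 and 62.1 and 62.6 RPKM with e3 guide 1, against 67.1 and 69.8 RPKM with the non-targeting guide and 57.8 and 54.9 RPKM without a guide. The e3 libraries of EEF1D lay between the controls, at a change of 0.00 ± 0.08 (adjusted p = 0.991).

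**Figure D2:**
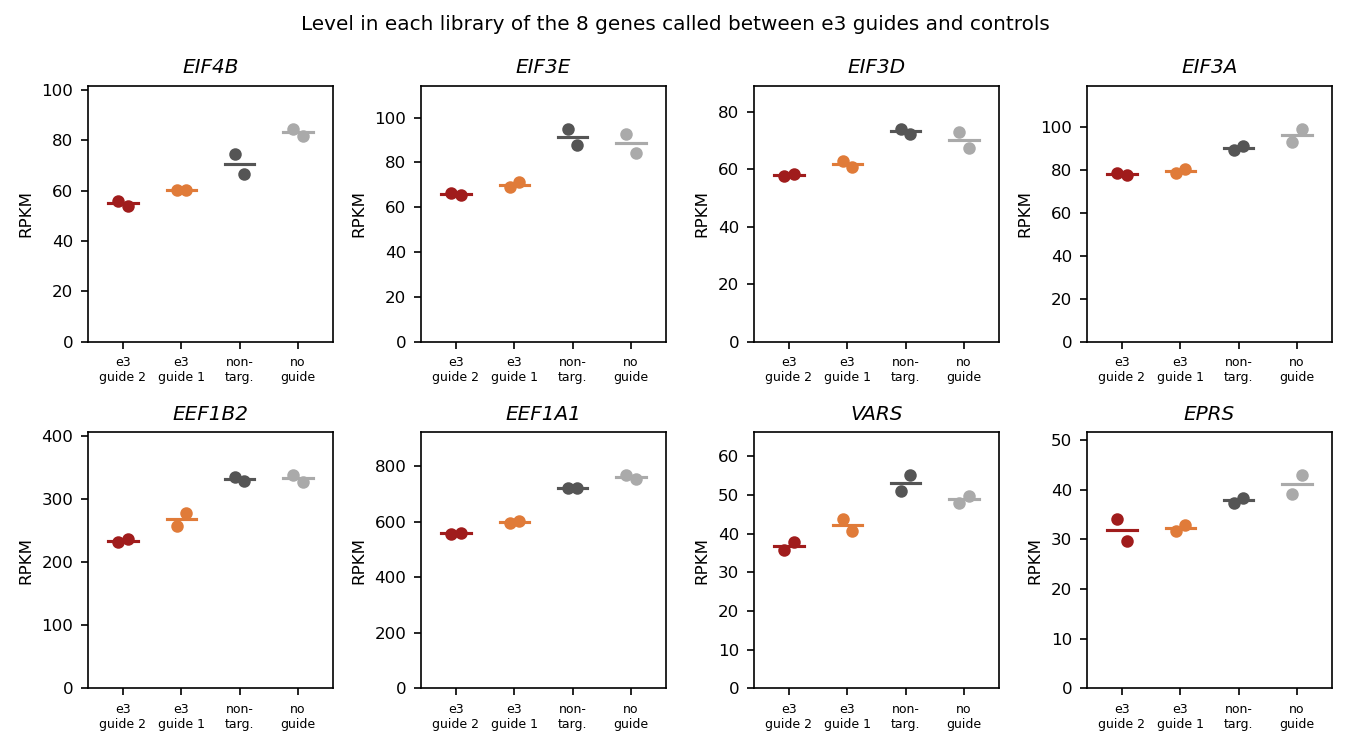
RPKM (linear axis from 0) of the 8 genes called between e3 guides and controls. Points are the 2 libraries of each group and lines are the means of these; in each panel all 4 e3 points lie below all 4 control points, as for EEF1A1, with 556 to 604 RPKM in the e3 libraries against 721 to 768 RPKM in the controls.

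Among the synthetases, 2 of 20 fell (background 2.58%) and 7 of 20 had e3 libraries all below the controls (background 7.51%). VARS (ENSG00000204394.8, chromosome 6), the valyl-tRNA synthetase, which is known to bind the eEF1 complex, had 35.7 and 37.8 RPKM with e3 guide 2 and 43.7 and 40.7 RPKM with e3 guide 1, against 51.1 and 55.1 RPKM with the non-targeting guide and 48.0 and 49.8 RPKM without a guide. Its groups did not overlap, at a change of -0.36 ± 0.08 (adjusted p = 0.0318). EPRS (ENSG00000136628.11, chromosome 1), the fused glutamyl- and prolyl-tRNA synthetase of the multisynthetase complex, had 34.1 and 29.6 RPKM with e3 guide 2 and 31.7 and 32.9 RPKM with e3 guide 1, against 37.3 and 38.4 RPKM with the non-targeting guide and 39.2 and 42.9 RPKM without a guide. The highest e3 library of EPRS stayed below the lowest control, at a change of -0.29 ± 0.07 (adjusted p = 0.0484).

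IARS, the isoleucyl enzyme, came nearest to passing. It had 40.3 and 39.8 RPKM with e3 guide 2 and 42.2 and 40.6 RPKM with e3 guide 1, against 47.1 and 45.1 RPKM with the non-targeting guide and 54.0 and 50.8 RPKM without a guide. The groups did not overlap, and the change of -0.27 ± 0.07 had an adjusted p of 0.0561. TARS, the threonyl enzyme and the most abundant synthetase on the list per length, had 98.1 and 101 RPKM with e3 guide 2 and 100.4 and 101 RPKM with e3 guide 1, against 129 and 129.5 RPKM with the non-targeting guide and 111 and 104 RPKM without a guide. Its e3 libraries were nearly level, its controls were not, and its change of -0.23 ± 0.08 did not pass (adjusted p = 0.114).

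AARS, the alanyl enzyme and the next in level, had 100.5 and 103 RPKM with e3 guide 2 and 97.2 and 106 RPKM with e3 guide 1, against 107 and 104 RPKM with the non-targeting guide and 103 and 105 RPKM without a guide. All its libraries overlapped, at a change of -0.04 ± 0.05 (adjusted p = 0.693). DARS, the aspartyl enzyme, had 40.6 and 43.7 RPKM with e3 guide 2 and 38.8 and 41.5 RPKM with e3 guide 1, against 52.6 and 51.4 RPKM with the non-targeting guide and 47.1 and 42.4 RPKM without a guide. No guide replicate 2 of DARS lay inside the e3 range, and its change was -0.22 ± 0.08 (adjusted p = 0.135). NARS, the asparaginyl enzyme, had 29.6 and 30.5 RPKM with e3 guide 2 and 34.7 and 35.2 RPKM with e3 guide 1, against 42.1 and 36.7 RPKM with the non-targeting guide and 37.8 and 36.4 RPKM without a guide, without overlap, at a change of -0.23 ± 0.08 (adjusted p = 0.136).

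The remaining synthetases, each named for the amino acid it loads, did not pass. Changes from -0.28 to -0.18 were those of YARS (tyrosine, -0.28), FARSB and FARSA (the subunits of the phenylalanyl enzyme, -0.25 and -0.19), QARS (glutamine, -0.23), GARS (glycine, -0.21), KARS (lysine, -0.20) and LARS (leucine, -0.18). Smaller changes were those of RARS (arginine, -0.12), HARS (histidine, -0.11), MARS (methionine, -0.10), SARS (serine, -0.06), CARS (cysteine, -0.01) and WARS (tryptophan, -0.01). For WARS and CARS the sign turned positive in some of the other fits. Of the 43 genes, 28 had an unadjusted p under 0.05, beside 3102 of all 13979 genes tested.

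Summed over the members of a role, RPKM in the e3 libraries stayed below the controls for each role, while the sum over all genes did not. Over all genes RPKM summed to 348600 and 347023 with e3 guide 2 and 355799 and 354508 with e3 guide 1, against 365111 and 366488 with the non-targeting guide and 352658 and 353264 without a guide. The non-targeting sums were the highest and the e3 guide 2 sums the lowest here too. The 18 initiation factors summed to 1966 and 1966 RPKM with e3 guide 2 and 2091 and 2109 RPKM with e3 guide 1, against 2470.0 and 2459 RPKM with the non-targeting guide and 2171 and 2204 RPKM without a guide. The 5 elongation factors summed to 1505 and 1521 RPKM with e3 guide 2 and 1612 and 1645 RPKM with e3 guide 1, against 1908 and 1972 RPKM with the non-targeting guide and 1902 and 1892 RPKM without a guide. The 20 synthetases summed to 827 and 831 RPKM with e3 guide 2 and 852 and 852 RPKM with e3 guide 1, against 995 and 1006 RPKM with the non-targeting guide and 915 and 931 RPKM without a guide. The non-targeting sums were the highest for initiation factors and synthetases, while those of the elongation factors were close in both controls. In RNA from whole cultures, fewer cells with a transcript and less of it per cell cannot be told apart.

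**Figure D3:**
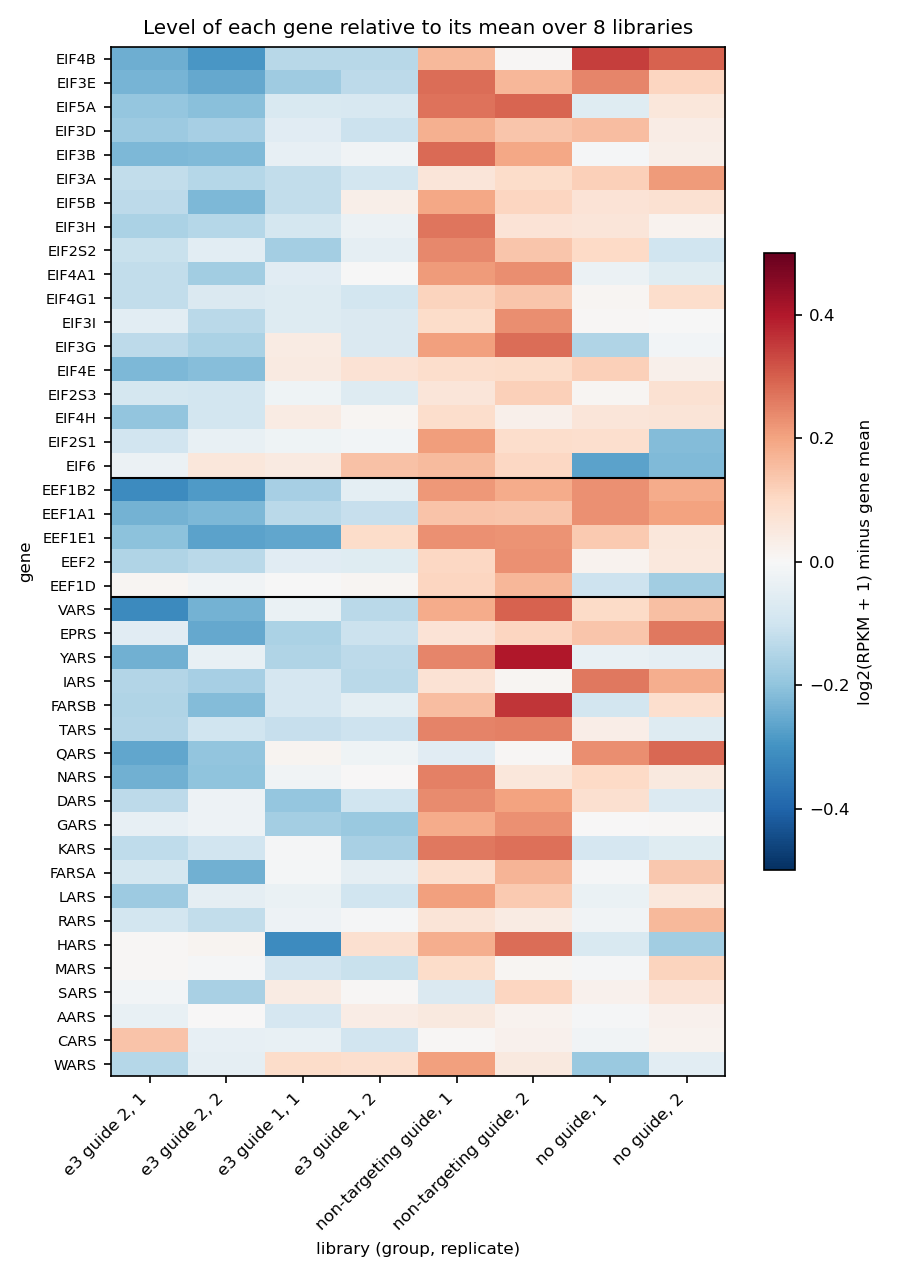
Each row is 1 of the 43 genes and each column 1 of the 8 libraries; colour is log2(RPKM + 1) minus the mean of that gene over the 8 libraries, and black lines part initiation factors, elongation factors and synthetases. The 4 e3 columns are mostly blue, the non-targeting columns mostly red, and the no-guide columns mixed, as in EIF6, which is blue only there and in 1 library with e3 guide 2.

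Per length, the mean levels over the 8 libraries ran from 5.71 RPKM for EIF4E to 718 RPKM for EEF2, with a median of 86.6 RPKM over the initiation factors, 292 RPKM over the elongation factors and 36.3 RPKM over the synthetases. These levels depend on the gene models used, since the length recovered from the values was 13193 bases for EIF4E and 945 bases for EEF1B2. The reads behind a gene in a library ran from 85 for EEF1E1 to 20442 for EEF1A1. At its mean number of reads over the 8 libraries, no member had a counting error above 10%. For EEF1E1 this error was 9.44%, and it was larger in the library with 85 reads. Some levels are uncertain because near-identical copies or overlapping genes can share reads. In GENCODE 29, 39 pseudogenes are named after EEF1A1, 13 after EIF4A1, 9 after EIF4B and 8 each after EEF1B2 and EEF1D. EIF4A1 shares 41.1% of its exonic bases with AC016876.2, a processed transcript on the same strand, and 29.8% with the readthrough gene SENP3-EIF4A1. EIF6 shares 17.4% with AL121753.1 and EEF1E1 18.7% with the readthrough gene EEF1E1-BLOC1S5, both on the same strand. Overlaps with genes on the opposite strand were 10.8% for EIF5B, 11.9% for EIF4B and 31.2% for EEF1D, and the strand setting of the counting is not given in the sources used here.

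Each guide was also set against the controls in a model of the 4 groups, which shares the control libraries between the guides. With e3 guide 2, 26 of the 43 genes were called lower and none higher (background 14.5% of all genes called, 7.62% lower and 6.85% higher). With e3 guide 1, 13 were called lower and none higher (background 8.99%, 4.03% lower and 4.96% higher). Median changes were -0.24 for e3 guide 2 and -0.16 for e3 guide 1. The smallest p-values with e3 guide 2 were those of EEF1A1 (-0.41 ± 0.02, adjusted p = 4.12e-05), EEF1B2 (-0.50 ± 0.04, adjusted p = 0.000178) and EIF5A (-0.34 ± 0.04, adjusted p = 0.000812). With e3 guide 1 they were those of EEF1A1 (-0.30 ± 0.02, adjusted p = 0.000228), EEF1B2 (-0.31 ± 0.04, adjusted p = 0.00304) and EIF3E (-0.35 ± 0.06, adjusted p = 0.0089).

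By role, e3 guide 2 had 14 of 18 initiation factors, 3 of 5 elongation factors and 9 of 20 synthetases lower (background 7.62%). For e3 guide 1 these were 6 of 18, 3 of 5 and 4 of 20 (background 4.03%). The counts rested on few libraries, and the counts over all genes also fell whenever a library was left out. For e3 guide 2 the count was 10 without its replicate 1, 12 without its replicate 2 and 17 without no guide replicate 2. For e3 guide 1 it was 2 without either of its own replicates, where the library left is assumed to vary like the other groups, 7 without either non-targeting library and 8 without either e3 guide 2 library.

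Set directly against each other, the guides gave no called member. Between e3 guide 2 and e3 guide 1, limma called none of the 43 genes and 4 genes in all (0.0286% of those tested, 0.00715% lower and 0.0215% higher), and 11 of the 43 had an unadjusted p under 0.05, beside 1451 of the 13979 genes tested. Changes were negative for 35 of 43, with a median of -0.09 beside 0.00 over all genes. The smallest p-values were those of EEF1B2 (-0.19 ± 0.05, adjusted p = 0.228), EEF1A1 (-0.10 ± 0.03, adjusted p = 0.261) and EIF3B (-0.19 ± 0.05, adjusted p = 0.278). A p above the threshold does not show that the guides acted alike.

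The controls differed from each other in 10 of the 43 genes. In the non-targeting libraries 9 genes were higher and 1 was lower than in the no-guide libraries (background 12.4% of all genes called, 6.55% higher and 5.81% lower), and the median change was 0.12. The smallest p-values were those of EIF4A1 (0.27 ± 0.04, adjusted p = 0.00336), EIF6 (0.37 ± 0.05, adjusted p = 0.00353) and EIF5A (0.28 ± 0.04, adjusted p = 0.0045). KARS, TARS, EIF3G, EEF1D, EIF3B and YARS were also higher, by 0.23 to 0.36, and QARS was the 1 lower, by a change of -0.29 ± 0.07 (adjusted p = 0.0283). EIF6 had 189.8 and 183 RPKM in the non-targeting libraries, against 141 and 146 RPKM without a guide, while the e3 libraries had 167 to 188 RPKM.

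Of the 8 genes called between e3 guides and controls, none passed between the controls, and EIF4B came nearest (-0.24 ± 0.07, adjusted p = 0.0549). The model that called these 8 counts a difference between the controls as spread. Genes whose controls differ pass it less readily, so this is no separate check of the 8. The non-targeting libraries lay all above the no-guide libraries for 24 of the 43 genes (background 27.2%) and all below for 6 (background 29.5%). Without a no-guide library, or without non-targeting replicate 1, 5 genes were higher, and without non-targeting replicate 2, 3 were. QARS was no longer called without either no-guide library or without non-targeting replicate 2. The count over all genes also fell whenever a library was left out. After quantile normalization 3 of the 43 genes were higher and 3 lower, with a median change of 0.05.

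Because the controls differed, the e3 libraries were set against each control alone. Relative to the non-targeting libraries, 19 of the 43 genes were lower and none higher (background 6.84%, 3.54% lower and 3.3% higher). All 43 changes were negative, with a median of -0.27, where 6988 of the 13979 genes tested had negative changes. By role, 9 of 18 initiation factors, 3 of 5 elongation factors and 7 of 20 synthetases were lower. The smallest p-values were those of EIF5A (-0.42 ± 0.05, adjusted p = 0.00736), TARS (-0.36 ± 0.05, adjusted p = 0.00736) and EEF1A1 (-0.32 ± 0.05, adjusted p = 0.0112). Most calls of this comparison, in members and in all genes, were lost in some fits. None of the 19 passed without non-targeting guide replicate 1 or without replicate 2, where 6 and 15 of all genes were called, beside 956 with every library. Without e3 guide 2 replicate 1 the members called were 6, of 444 genes, and without e3 guide 2 replicate 2 they were 9, of 532 genes. No member passed without a variance trend, where 31 genes were called. After quantile normalization 11 passed, and EEF1A1 did not (-0.17).

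Relative to the no-guide libraries, 9 of the 43 genes were lower and 1, EIF6, was higher (background 16.7%, 8.03% lower and 8.68% higher), and the median change was -0.12. The smallest p-values were those of EEF1A1 (-0.39 ± 0.05, adjusted p = 0.00125), EIF4B (-0.52 ± 0.07, adjusted p = 0.00163) and EIF3E (-0.38 ± 0.07, adjusted p = 0.00684). EIF3A, EEF1B2, IARS, EPRS, QARS and VARS were also lower, and EIF6 was higher by 0.30 ± 0.06 (adjusted p = 0.0112). Without no guide replicate 1, 3 members were lower, without no guide replicate 2, 4 were, and EIF6 was not called in either fit. Over all genes the count was 945 and 983 in these fits, beside 2336 with every library.

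EIF3E, EEF1A1, EEF1B2 and VARS were called lower against each control alone, VARS only narrowly against no guide (limma, adjusted p = 0.0499). EEF1B2 changed by -0.41 against the non-targeting guide and by -0.41 against no guide, EIF3E by -0.42 and -0.38, EEF1A1 by -0.32 and -0.39, and VARS by -0.42 and -0.30. These comparisons share the e3 libraries. For EIF5A, EIF4A1, TARS and KARS, in contrast, the changes were -0.42, -0.31, -0.36 and -0.37 against the non-targeting guide, and -0.14, -0.04, -0.10 and -0.03 against no guide. EIF6 and EEF1D changed by -0.08 and -0.14 against the non-targeting guide, and by 0.30 and 0.14 against no guide.

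**Figure D4:**
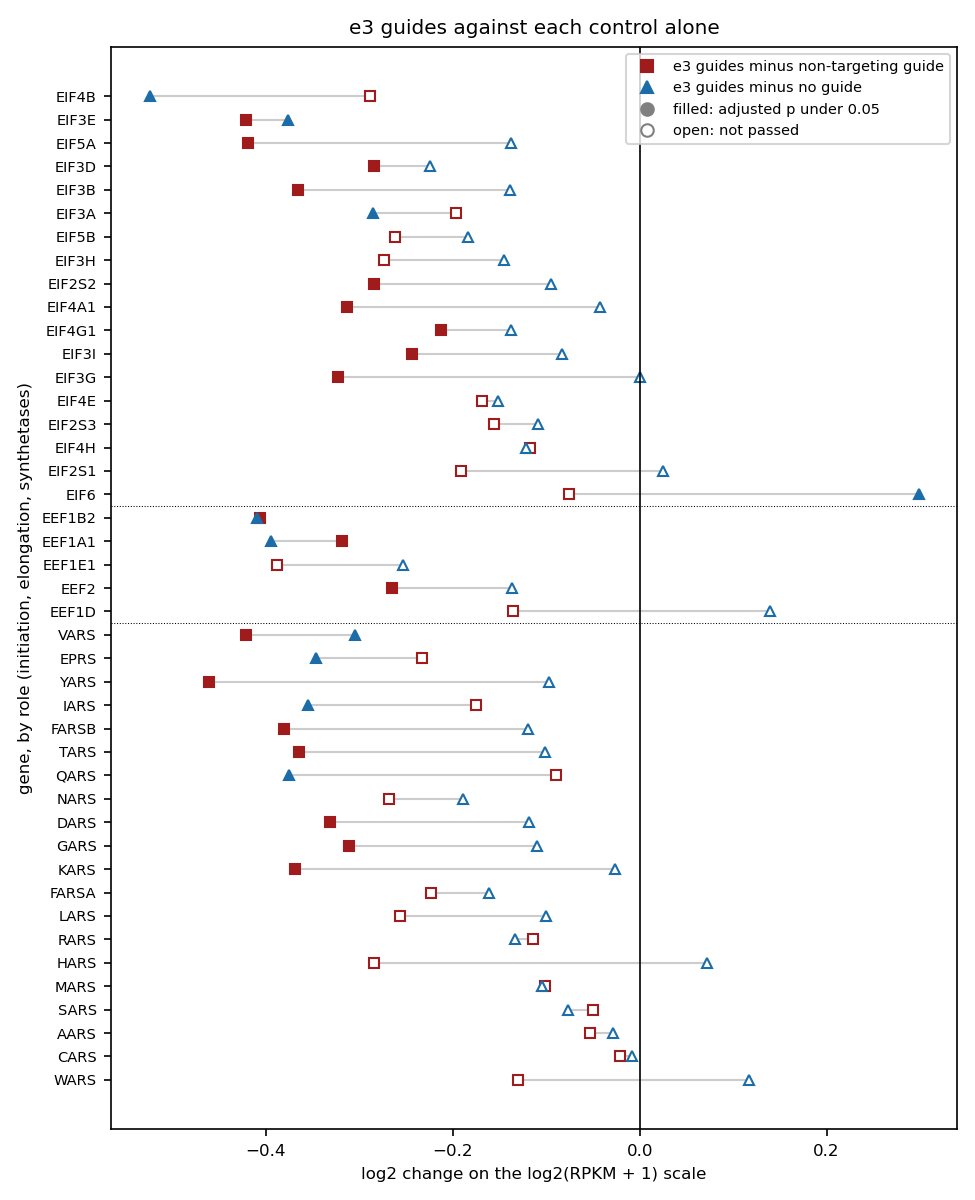
Log2 change on the log2(RPKM + 1) scale of each of the 43 genes in the 4 e3 libraries against the 2 non-targeting libraries (squares) and against the 2 no-guide libraries (triangles), with a grey line between them; filled marks passed the adjusted p of 0.05. All 43 squares lie left of 0, EEF1B2 has both marks at -0.41, and EIF6 runs from -0.08 to 0.30.

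A further 3 groupings within the list were counted by known features. Of 8 genes listed as having TOP mRNAs, 7 were in the table (EEF1A1, EEF1B2, EEF1D, EEF2, EIF4B, EIF3E and EIF3H), and 4 fell in the e3 libraries relative to the controls, with a median change of -0.36. Against the non-targeting guide alone 4 were lower, with a median of -0.29, and against no guide alone 4 were lower, with a median of -0.38. The 9 genes of the multisynthetase complex had 1 member lower, EPRS, and a median of -0.22. The 11 synthetases that the stress factor ATF4 is known to induce had 1 member lower, also EPRS, and a median of -0.21. Of all genes tested, 2.58% were lower relative to both controls, 3.54% relative to the non-targeting guide and 8.03% relative to no guide. No test compared these groupings with one another.

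Other genes of the pathway were counted in the comparison of e3 libraries with controls, where 2.58% of all genes tested were lower and 2.63% higher. Of 33 further initiation factors and regulators tested, 6 fell and none rose, among them PABPC1, the poly(A)-binding protein (-0.26 ± 0.04, adjusted p = 0.0134), EIF2A, an alternative initiator tRNA carrier (-0.37 ± 0.07, adjusted p = 0.0167), and DENR, a reinitiation factor (-0.33 ± 0.06, adjusted p = 0.0187). None of the 6 kinases and phosphatase subunits that act on eIF2 alpha passed, with PPP1R15A at 0.20 and EIF2AK3 at 0.06. None of 10 further elongation, termination and recycling factors passed, with the recycling factor ABCE1 at -0.26 and the release factor GSPT1 at -0.21. Among 4 other cytosolic genes of tRNA charging, XPOT, the tRNA exporter, fell (-0.37 ± 0.09, adjusted p = 0.0404). Relative to no guide alone, PPP1R15A was higher (0.39 ± 0.08, limma, adjusted p = 0.0105; background 8.68% higher). EEF1A2, 1 of the 10 further factors, changed by -0.46 relative to both controls without passing. It was lower relative to no guide alone (-0.86 ± 0.15, limma, adjusted p = 0.00671, background 8.03% lower). Relative to the non-targeting guide alone, none of the 6 passed and 1 of the 10 was lower (background 3.54% lower).

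In the mitochondrial system, 2 of 19 synthetase genes tested fell, MARS2 (-0.52 ± 0.11, adjusted p = 0.0298) and IARS2 (-0.43 ± 0.10, adjusted p = 0.0369), and none rose (background 2.58% lower and 2.63% higher). None of 10 mitochondrial translation factors passed, with the elongation factor TUFM at -0.29 and the initiation factor MTIF2 at -0.23. Of 16 genes of the integrated stress response, 3 fell and none rose in this comparison. They were SLC7A5 and SLC3A2, which together form an amino acid transporter (-0.70 ± 0.05, adjusted p = 0.000583, and -0.30 ± 0.07, adjusted p = 0.0397), and PSAT1, of serine synthesis (-0.42 ± 0.10, adjusted p = 0.0439). This count depended on the control and the guide. Relative to no guide alone, 5 of the 16 were higher and 3 lower (background 8.68% higher and 8.03% lower). Relative to the non-targeting guide alone none was higher and 3 were lower (background 3.3% higher and 3.54% lower). The 5 were the stress-induced transcription factor ATF3 (1.29 ± 0.15, adjusted p = 0.00116), DDIT4 (0.86 ± 0.17, adjusted p = 0.0112), VLDLR (0.81 ± 0.14, adjusted p = 0.00777), CEBPG (0.51 ± 0.08, adjusted p = 0.00509) and SESN2 (0.46 ± 0.11, adjusted p = 0.0281). The controls also differed from each other in this list. In the non-targeting libraries 2 of the 16 were higher and 1 lower than in the no-guide libraries (background 6.55% higher and 5.81% lower). Relative to both controls, ATF3 was higher with e3 guide 2 (1.01 ± 0.21, adjusted p = 0.0184) and DDIT4 with e3 guide 1 (0.55 ± 0.09, adjusted p = 0.00947). Of the 33 further initiation factors and regulators, 8 were lower and none higher relative to the non-targeting guide, and 5 lower and 1 higher relative to no guide. None of the mitochondrial synthetases passed relative to the non-targeting guide, and 3 were lower relative to no guide. For both lists the background was 3.54% lower relative to the non-targeting guide and 8.03% lower relative to no guide. In the comparison with both controls, the median changes of these lists lay between -0.18 and 0.00, beside -0.20 for the 43 genes.

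As a check of the target, MYC, the gene near the enhancer, had 36.3 and 36.2 RPKM with e3 guide 2 and 42.4 and 43.4 RPKM with e3 guide 1, against 88.9 and 90.1 RPKM with the non-targeting guide and 74.6 and 72.7 RPKM without a guide. The groups were far apart, and the change was -1.02 ± 0.10 (adjusted p = 0.00215). Between the controls MYC was higher in the non-targeting than in the no-guide libraries, by 0.28 ± 0.05 (adjusted p = 0.0133), and the part of this difference in the values of the 43 genes was not tested. All 6 epithelial markers were well expressed, at a summed 3037 to 3134 RPKM in the e3 libraries and 2654 to 3454 RPKM in the controls. None of the 4 blood markers and none of the 2 endothelial markers found passed the filter, and of 5 fibroblast markers COL1A1 alone did, while DCN and LUM were at 0 in every library. The fibroblast markers summed to 6.15 to 7.18 RPKM in the e3 libraries and 3.33 to 5.76 RPKM in the controls, and their part in the results was not tested. Inferred depths were 3875080 to 5754470 reads per library. The chi-square of replicates per degree of freedom was 1.91 to 2.12 over 11961 genes, more than counting error alone. No library was counted with another as 1 sample, but this value does not show that replicates came from separate cultures.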

How the data were processed

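The authors deposited 1 table of RPKM values (reads per length of gene model and depth of library), a unit named in the title of the table and not in its header, with 1 column for each of 8 libraries made from poly(A) RNA, per the labels' protocols. Per the submitters' processing notes, hg19 was a build and Cufflinks a tool used, with no role or version stated. Which aligner, read counting, strandedness and annotation were used is not given in the sources used here. RPKM carries no depth, so reads were inferred from the steps between values, which were whole reads within 0.01 for 99.99% of the genes tested. These reads served only to judge precision. Groups and replicate numbers came from the sample titles.

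Tests used limma 3.58.1 in R 4.3.3 (moderated, with a variance trend, two-sided) on log2(RPKM + 1), keeping genes whose mean reached 1 RPKM, with Benjamini-Hochberg adjustment over all 13979 genes and a threshold of 0.05. This scale understates the change of low genes. The e3 libraries and the controls were compared in a model of 2 groups, guides and controls singly in a model of 4 groups, and the e3 libraries against 1 control in the 6 libraries concerned. The steps were tested on simulated data, in which libraries varied independently and groups differed only by the changes put in. That test therefore does not cover differences between groups such as those between the controls. The members, the lists and the tests were chosen with earlier results of these data known. Values by library are given for members called between e3 guides and controls, and in each role for the 2 highest and, among those not called, the 4 with the smallest p. The 3 smallest p-values are named for the other comparisons. GENCODE release 29 and RefSeq (GRCh38.p14), which belong to another build than the table, were used only for names, chromosomes, overlaps and promoter sequences. The alternatives tried were another pseudocount, other filters, other scalings, no variance trend, a replicate block, a correlation within groups, group means and leaving out each library.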

Additional observations from a re-analysis of the deposited data

Results flagged for a closer look

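Among the 86 sets of 4 libraries examined (43 genes, e3 libraries and controls apart), 1 held a library far from the other 3 by Dixon's criterion at 95%. EEF1E1 had 12.4 RPKM in e3 guide 1 replicate 2, against 9.41 to 9.90 RPKM in the other e3 libraries. EEF1E1 also had the fewest reads of any member, 85 in its lowest library. Chance alone marks about 1 in 20 such sets, and no explanation was tested.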

How the results depend on the processing

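Between e3 guides and controls, 727 genes and 8 members (all lower) were called; the counts were 406 and 5 without a filter, 310 and 3 without a variance trend, 387 and 4 with a replicate block, 256 and 3 with an estimated correlation of 0.32 between libraries of a group, and 1 and 0 with group means as samples. Leaving out 1 library gave 180 to 580 genes and 3 to 5 members. EEF1A1, EEF1B2 and EIF3E passed in every setting except group means (adjusted p of 0.407 to 0.414), while of 17 settings EIF4B lost its call in 9, VARS and EIF3A in 11, EIF3D in 13 and EPRS in 16. With e3 guide 1 members called lower were 0 without a trend and 2 to 11 without 1 library. With e3 guide 2 they were 17 after quantile normalization, 9 without a trend and 10 to 22 without 1 library. Between the controls, members lower were 2 with a minimum of 5 RPKM, 3 after quantile normalization, 0 without a trend and 0 to 1 without 1 library, and members higher were 3, 1 and 3 to 9 under the last 3 of these. Against the non-targeting guide, members lower were 6 without a filter, 11 after quantile normalization, 0 without a trend, 10 with a replicate block and 0 to 15 without 1 library. Against no guide, members lower were 5 without a filter, 4 without a trend and 3 to 9 without 1 library, and members higher were 0 without a trend and 0 to 1 without 1 library. Leaving out a library reduces the samples, and the counts over all genes in these comparisons fell as well. The cause of the other shifts was not tested. Same-numbered replicates did not deviate together (correlations of -0.02 to 0.01 between groups). This does not show whether they shared a culture or a day, which the labels do not say. The block moved no other count of members by over 1.5 times. The changes of WARS, CARS and EEF1D between e3 guides and controls changed sign: WARS was 0.0075 after median-ratio scaling and, without 1 library, WARS ran from -0.070 to 0.061, CARS from -0.065 to 0.015 and EEF1D from -0.056 to 0.057. Of the single-gene values under alternatives, 893 kept direction and call, 83 lost the call, 3 gained it (IARS in 2 settings, EIF5A in 1) and 10 changed sign. Under the settings other than leaving out 1 library, the change of EEF2 between e3 guides and controls ran from -0.20 to -0.06. That of EIF4A1 ran from -0.18 to -0.06, that of EEF1A1 from -0.36 to -0.27 and that of EEF1B2 from -0.41 to -0.32. Scaling moved the median change of all genes to between -0.02 and -0.01, which does not limit how far single genes moved. At 3875080 to 5754470 reads per library and 4 libraries against 4, no change was detected for genes such as AARS (-0.04 ± 0.05).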
